A study of Mus musculus with 18 samples.

Results

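MTGR1 (gene Cbfa2t2) belongs to the MTG corepressor family, whose proteins bind no DNA themselves and are brought to genes by sequence-specific factors. The genes described here are 9 binding partners of that family, chosen by name: the E proteins Tcf3, Tcf12 and Tcf4, the histone deacetylases Hdac1, Hdac2 and Hdac3, the corepressor scaffolds Ncor1 and Sin3a, and Zbtb33, which encodes the DNA-binding repressor Kaiso. All 9 were listed in each table, among 17759 genes in crypts, 17423 on day 1 and 17612 on day 3, and all 9 passed the filter on low values at each time. mRNA was sequenced from the duodenum of 3 WT (Mtgr1+/+) and 3 Mtgr1-/- mice, a global knockout compared with age-matched littermates of both sexes. The enteroid donors were 8 to 12 weeks old per the study's methods. Each mouse gave 1 library of freshly isolated crypts, 1 of enteroids (crypts grown in Matrigel with EGF, Noggin and R-spondin) 24 h after plating (day 1) and 1 at 72 h (day 3), which makes 18 libraries in 6 groups of 3.

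E proteins are basic helix-loop-helix (bHLH) factors that bind the E-box, either as pairs of E proteins or with a lineage factor such as ATOH1 or NEUROG3, and ID proteins hold them off DNA. MTG proteins bind E proteins at one face and, at others, the NCoR and Sin3 scaffolds, which carry class I histone deacetylases that remove acetyl groups from histones. In the intestine, ATOH1 with its E-protein partner drives secretory fate, and the class I deacetylases serve crypt cell division. The gene Tcf4 is the E protein also called E2-2 and is not the Wnt effector that shares the name TCF4, whose gene is Tcf7l2.

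Read depth could be recovered in 16 of the 18 libraries and ran from 22035316 to 28621990 reads, with a median of 26258539. Values are the deposited normalized counts (reads divided by 1 factor per library within a table), so levels were compared between genotypes only within a time point. Epithelial markers were listed in every table (10 of 10), which alone does not show what cells the libraries held. In crypts they summed to 198471 to 235285 normalized counts in WT and 233577 to 280141 in Mtgr1-/-. WT crypt library 3 stood apart: its 13 immune markers summed to 12252 normalized counts. They summed to 1134 and 1076 in the other WT crypt libraries and to 429.9 to 1412 in the Mtgr1-/- crypt libraries. The crypt count of members past the threshold and the crypt values of Hdac1, Hdac3 and Tcf4 are therefore also given without library 3. The targeted gene did not check the labels, because a whole-gene count does not show which exons were lost: Cbfa2t2 read 614, 523 and 595 in WT crypts and 697, 466 and 534 in crypts labelled Mtgr1-/-. Its log2 fold change was -0.05 in crypts, 0.37 on day 1 (adjusted p = 0.0557, or 0.0399 when mouse numbers formed blocks) and 0.06 on day 3. The sign in crypts and on day 3 was not stable across settings, as listed under the dependence on processing. In bulk RNA, fewer cells of a type and less RNA per cell cannot be told apart.

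The promoters of Hdac2, Tcf3 and Sin3a, which had the most negative log2 fold changes of the 9 on both days of culture, are printed as the 250 bases upstream of a RefSeq start (GRCm38.p6), 5′ to 3′ on the gene's strand, with E-boxes (CANNTG, both strands) in capitals. The Hdac2 window is chr10:36974294-36974543 (+), the Tcf3 window is chr10:80433636-80433885 (-), and the Sin3a window is chr9:57071790-57072039 (+). The annotated genes (GENCODE, GRCm38) span chr10:36974544-37001889 for Hdac2, chr10:80409514-80433647 for Tcf3 and chr9:57072040-57128366 for Sin3a.
Hdac2: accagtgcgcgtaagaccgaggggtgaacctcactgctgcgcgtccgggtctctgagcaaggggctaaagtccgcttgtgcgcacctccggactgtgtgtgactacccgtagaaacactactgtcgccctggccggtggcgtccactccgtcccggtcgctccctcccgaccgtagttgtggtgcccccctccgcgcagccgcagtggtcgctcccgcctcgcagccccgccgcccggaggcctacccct
Tcf3: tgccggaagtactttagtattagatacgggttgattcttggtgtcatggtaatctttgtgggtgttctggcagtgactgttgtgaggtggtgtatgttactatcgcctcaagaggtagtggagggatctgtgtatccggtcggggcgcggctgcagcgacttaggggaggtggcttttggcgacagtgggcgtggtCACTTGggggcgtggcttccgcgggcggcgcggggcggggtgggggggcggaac
Sin3a: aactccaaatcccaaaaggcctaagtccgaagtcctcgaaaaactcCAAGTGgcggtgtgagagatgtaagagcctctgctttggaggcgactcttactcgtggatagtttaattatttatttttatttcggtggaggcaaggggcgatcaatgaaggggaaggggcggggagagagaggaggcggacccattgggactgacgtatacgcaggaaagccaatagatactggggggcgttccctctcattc
The Hdac2 window held 0 E-boxes, and the printed windows of Tcf3 and Sin3a held 1 each. E-boxes were present in 66.2% of all 32851 promoter windows of that length. The narrower form CAGNTG, favoured by E-protein pairs, occurred in none of the 3 windows printed and in 44.8% of all windows. The GC box GGGCGG (both strands) occurred once in the printed Hdac2 and Sin3a windows and 3 times in that of Tcf3. Of all windows, 32.7% held a match. The Hdac2 window held 27 CpG dinucleotides, more than 91.4% of all windows, where the median was 6. The printed windows of Tcf3 and Sin3a held 18 and 12. A second Sin3a window, chr9:57076126-57076375 (+), held 0 E-boxes, 3 GC boxes and 19 CpG dinucleotides, so the Sin3a values depend on the start chosen. The Kaiso site TCCTGCNA was found in none of the windows read, which covered 6 of the 9 genes, and in 4.03% of all windows. RefSeq windows were at hand for 6 of the 9 genes.

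In freshly isolated crypts, no genotype difference was resolved for the 9 genes. None passed an adjusted p of 0.05 (limma on log2 of the normalized count + 1, Benjamini-Hochberg over 12980 genes), none had an unadjusted p under 0.05, and edgeR and DESeq2 on the recovered reads called 0 of 9 as well. Of all genes tested, 3.15% were lower and 1.58% higher in Mtgr1-/- crypts. The median log2 fold change of the 9 was -0.12, beside 0.01 over all genes. Without WT crypt library 3 the count was again 0, and the log2 differences of Hdac1 and Tcf4 were -0.27 and 0.39.

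Among the E proteins, Tcf3 (E2A) read 1531, 1658 and 1496 in WT crypts and 1332, 1608 and 1302 in Mtgr1-/- crypts. Those of Tcf12 (HEB) were 2159, 2220.5 and 2065 in WT and 2139, 2354 and 1820 in Mtgr1-/- crypts. Tcf4 was far lower in both genotypes, at 345, 309.9 and 412 in WT and 414, 534 and 353 in Mtgr1-/- crypts. The genotypes overlapped for all 3, and the log2 fold changes were -0.15, -0.04 and 0.27. Their 95% confidence intervals took in 0, and that of Tcf4 was wide, from -0.17 to 0.72.

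The deacetylases did not pass the threshold in crypts either. Hdac1 read 2270.2, 2406 and 1867 in WT and 2083, 1729 and 2012 in Mtgr1-/- crypts. Hdac2 read 1515, 1587 and 1486 in WT and 1401, 1598 and 1236 in Mtgr1-/- crypts. Hdac3, the catalytic subunit of the NCoR complex, read 2193, 2238 and 1638 in WT and 2299, 2334 and 2257 in Mtgr1-/- crypts, and was the 1 member of 9 whose genotypes did not overlap, against 25.5% of all genes. Its log2 fold change of 0.20 (adjusted p = 0.481) was 0.05 without WT crypt library 3.

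The scaffold Ncor1 read 8265, 7041 and 8189 in WT and 9509.8, 7436 and 8812 in Mtgr1-/- crypts, a log2 difference of 0.13 (95% interval -0.17 to 0.43). Sin3a read 1549, 1350.3 and 1402 in WT and 1403, 1223 and 1031 in Mtgr1-/- crypts, a log2 difference of -0.24 (-0.55 to 0.06). Zbtb33 read 916, 833 and 978 in WT and 849, 908 and 728 in Mtgr1-/- crypts. Each of these genes overlapped between the genotypes.

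**Figure D1:**
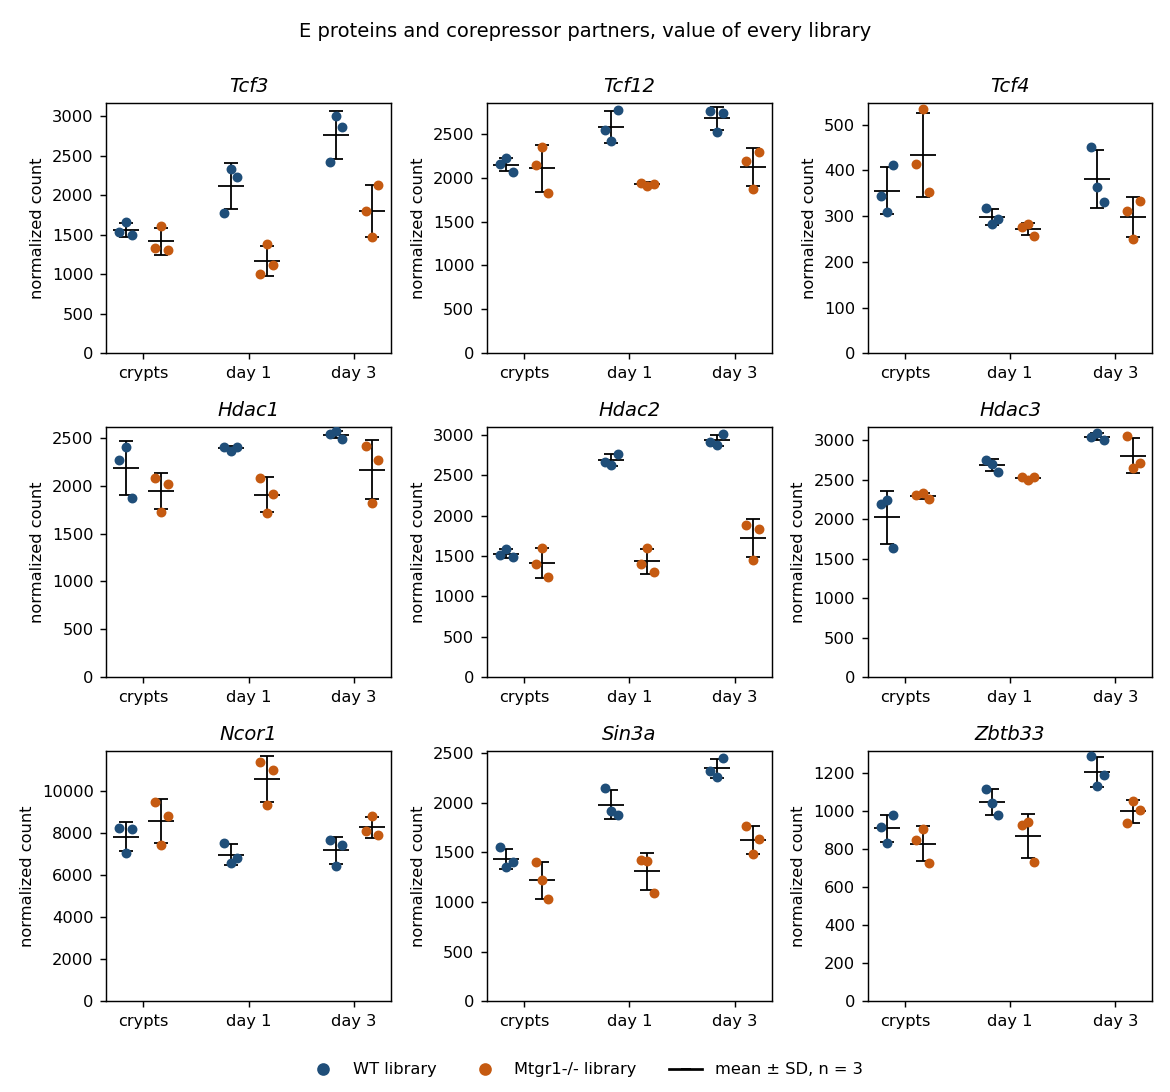
Normalized counts (y axis, from 0, own scale per gene) of the 9 genes in every library of crypts, day 1 and day 3 enteroids, with WT in blue and Mtgr1-/- in orange, and the mean ± SD of 3 libraries in black. Each time point was normalized separately, so heights are comparable between genotypes at 1 time; Hdac2 separates the genotypes on day 1 (2625 to 2767 in WT, 1299 to 1599 in Mtgr1-/-) but not in crypts.

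In culture some of the 9 genes passed the threshold. In day 1 enteroids 5 of the 9 genes were lower in Mtgr1-/- (Hdac2, Tcf3, Sin3a, Tcf12 and Hdac1) and 1, Ncor1, was higher. In day 3 enteroids 5 were lower (Hdac2, Tcf3, Sin3a, Tcf12 and Zbtb33) and 0 higher. These counts stand against a wide response of the transcriptome, since 28.9% of all genes were lower and 30.0% higher on day 1, and 29.1% lower and 29.9% higher on day 3. The median log2 fold change of the 9 was -0.33 on day 1 and -0.34 on day 3, beside -0.01 and 0.00 over all genes. The genotypes did not overlap for 9 of 9 genes on day 1 (68.1% of all genes) and 7 of 9 on day 3 (68.8%).

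The sizes depend on how libraries are scaled. The Mtgr1-/- enteroid libraries had the larger totals on the deposited scale, and dividing each library by its own total (the per-million scale, or CPM, an alternative chosen after seeing the data) moved the median of all genes to -0.33 on day 1 and -0.20 on day 3. The split of all genes past the threshold on day 1, 3776 higher and 3637 lower, became 2200 higher and 5614 lower, and on day 3 it went from 3826 and 3719 to 2748 and 5089. On that scale 8 of 9 genes were lower and past the threshold on day 1 and again on day 3, while Ncor1 was 0.28 higher on day 1 (adjusted p = 0.0107) and 0.01 on day 3. Hdac2, Tcf3, Sin3a and Tcf12 were lower on both days on the deposited, median-ratio, quantile and per-million scales.

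Of the E proteins, Tcf3 and Tcf12 were lower on both days of culture. In day 1 enteroids Tcf3 read 1781, 2332 and 2225 in WT and 1008, 1379.7 and 1122 in Mtgr1-/-. Every Mtgr1-/- library lay below every WT library, and the log2 fold change was -0.85 ± 0.15 (SE, n = 3; adjusted p = 0.00200). In day 3 enteroids it read 2423, 3001 and 2861 in WT and 1795, 1474 and 2131 in Mtgr1-/-, so that the log2 fold change was -0.63 ± 0.14 (adjusted p = 0.00610), again without overlap.

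Tcf12 was lower as well. On day 1 it read 2537, 2422 and 2771 in WT and 1943, 1907 and 1932 in Mtgr1-/-, so the Mtgr1-/- libraries sat close together and below all WT libraries. The log2 fold change was -0.42 ± 0.08 (adjusted p = 0.00338). Day 3 values were 2754, 2525 and 2740.5 in WT and 2192, 1876 and 2294 in Mtgr1-/-, so that the log2 fold change was -0.34 ± 0.09 (adjusted p = 0.0153). This day 3 call was lost without WT library 1 or WT library 3, with adjusted p up to 0.0585. The span of Tcf12 overlaps 7 annotated genes on its own strand, and whether reads were shared with them was not tested.

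Tcf4, the least abundant of the E proteins, did not pass the threshold. On day 1 it read 317, 283 and 293 in WT and 275, 283 and 257 in Mtgr1-/-, a log2 difference of -0.13 (95% interval -0.41 to 0.14) that was 0.05 after quantile normalization. On day 3 it read 452, 363 and 330.1 in WT and 312, 249.5 and 333 in Mtgr1-/-, a log2 difference of -0.35 (-0.72 to 0.02; adjusted p = 0.0900). The highest Mtgr1-/- library lay above the lowest WT library on day 3. Per kilobase of the longest coding transcript, WT day 1 enteroids held 716 ± 99.1 normalized counts of Tcf3, 409 ± 28.2 of Tcf12 and 34.7 ± 2.04 of Tcf4 (mean ± SD, n = 3). In Mtgr1-/- day 1 enteroids those levels were 396 ± 64.6, 306 ± 2.93 and 31.7 ± 1.54, in the same order.

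Of the deacetylases, Hdac2 was lower on both days, Hdac1 on day 1 and Hdac3 on neither. Hdac2, a catalytic subunit of the Sin3, NuRD and CoREST complexes, read 2666, 2625 and 2767 in WT and 1404, 1599 and 1299 in Mtgr1-/- on day 1. No libraries overlapped, and the log2 fold change was -0.91 ± 0.10 (adjusted p = 0.000308), or 0.53 of the WT level. Day 3 enteroids read 2904, 2876 and 3008 in WT and 1877, 1454 and 1829 in Mtgr1-/-, so that the log2 fold change was -0.78 ± 0.11 (adjusted p = 0.000584).

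Hdac1 is its close paralogue in the same complexes. On day 1 it read 2406, 2366 and 2399 in WT and 2083, 1718 and 1915 in Mtgr1-/-, so that the log2 fold change was -0.33 ± 0.09 (adjusted p = 0.0148). On day 3 it read 2535, 2569.5 and 2492 in WT and 2409.8, 1821 and 2268 in Mtgr1-/-, which did not overlap but gave an adjusted p of 0.0939 (log2 difference -0.23, 95% interval -0.48 to 0.01) and passed the threshold in 4 of 18 settings (quantile normalization, array weights, the per-million scale and without Mtgr1-/- library 1). Hdac1 has 3 annotated processed pseudogenes at 94.6% to 99.4% identity over 1444 to 1469 bases, and none of them is a row of the tables, so reads shared with them may be counted under Hdac1.

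Hdac3 did not pass the threshold at any time. On day 1 it read 2751, 2699 and 2601 in WT and 2532, 2499.6 and 2527 in Mtgr1-/-, below WT in every library but by a log2 difference of -0.09 (95% interval -0.26 to 0.07). The day 3 values were 3035, 3094 and 3001 in WT and 3054, 2642 and 2712 in Mtgr1-/-, a log2 difference of -0.12 (-0.31 to 0.06). It passed the threshold on both days after quantile normalization and on the per-million scale, where the values were -0.41 on day 1 and -0.32 on day 3.

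**Figure D2:**
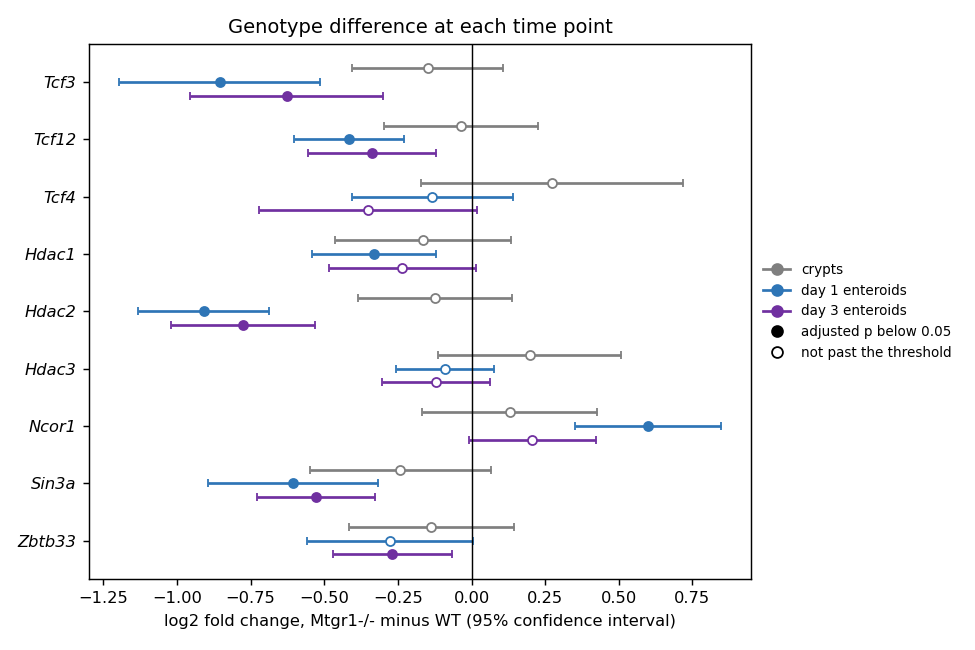
Log2 fold change of Mtgr1-/- minus WT (x axis) with its 95% confidence interval for each gene in crypts (grey), day 1 (blue) and day 3 (purple) enteroids, 3 against 3 libraries each; filled points have an adjusted p below 0.05 (limma). All crypt intervals take in 0, and Hdac2 and Tcf3 lie farthest to the left on day 1, at -0.91 and -0.85, with Ncor1 on the right at 0.60.

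The scaffolds went in opposite directions on day 1. Sin3a, the platform on which HDAC1 and HDAC2 assemble, read 2146, 1914 and 1875 in WT and 1424, 1409 and 1086 in Mtgr1-/-. The log2 fold change was -0.61 ± 0.12 (adjusted p = 0.00423), without overlap. On day 3 it read 2320.5, 2259.6 and 2450.1 in WT and 1766, 1483 and 1633 in Mtgr1-/-, so that the log2 fold change was -0.53 ± 0.09 (adjusted p = 0.00139).

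Ncor1, the platform for HDAC3, was the 1 member that passed the threshold with a higher level in Mtgr1-/- than in WT. On day 1 it read 7532, 6567 and 6814 in WT and 11388, 9349 and 11019 in Mtgr1-/-, so that the log2 fold change was 0.60 ± 0.11 (adjusted p = 0.00227), or 1.52 times the WT level. The day 3 values were 7676, 6445 and 7440.3 in WT and 8096, 8825 and 7918 in Mtgr1-/-, with a log2 difference of 0.21 (95% interval -0.01 to 0.42; adjusted p = 0.0884). The libraries did not overlap on day 3, but the sign turned to -0.09 after quantile normalization. A processed pseudogene of Ncor1 (94.8% identity over 556 bases) is not a row of the tables.

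Zbtb33 lies on the X chromosome, and each genotype held 1 mouse whose libraries were high in Xist, the X-inactivation RNA (9047 to 14831 normalized counts over the 3 times, against at most 19.6 in the other libraries). On day 1 Zbtb33 read 1118, 1043 and 981 in WT and 929, 944 and 733 in Mtgr1-/-, so that the log2 fold change was -0.28 ± 0.12 with an adjusted p of 0.0831. Same-numbered day 1 libraries deviated together, and when mouse numbers formed blocks that adjusted p was 0.0350. It also passed the threshold without Mtgr1-/- library 2 and on the per-million scale. Its day 3 values were 1289.7, 1133 and 1189.7 in WT and 936, 1053 and 1008 in Mtgr1-/-, so that the log2 fold change was -0.27 ± 0.09 (adjusted p = 0.0294). This day 3 call was lost without WT library 1 or 3 or Mtgr1-/- library 1 or 3, with adjusted p up to 0.108.

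Whether the genotype difference itself changed from crypts to culture was tested in 1 joint limma model over the 18 libraries, which allowed for libraries sharing a mouse and in which a factor common to all libraries of a table cancels. From crypts to day 1 it changed for 4 of the 9 genes, against 38.6% of all genes. Hdac2 became 0.79 more negative on the log2 scale, from -0.12 to -0.91 (SE 0.15; adjusted p = 0.00190). Tcf3 changed by -0.71 (adjusted p = 0.0150), Tcf12 by -0.38 (adjusted p = 0.0337) and Ncor1 by 0.47 (adjusted p = 0.0249). The Hdac2 call held in each setting tried, while Tcf3, Tcf12 and Ncor1 each lost theirs without certain mice, and Ncor1 changed by 0.12 (adjusted p = 0.503) on the per-million scale. The 4 calls fell to 1, that of Hdac2, without WT mouse 3 or without Mtgr1-/- mouse 1, and to 2 without WT mouse 1 or WT mouse 2. For Sin3a the change was -0.36 (95% interval -0.72 to -0.01; adjusted p = 0.0981), so a larger difference in culture than in crypts was not shown after adjustment. Nor was it shown for Hdac1 (-0.17, adjusted p = 0.423) or Zbtb33 (-0.14, adjusted p = 0.499). From crypts to day 3 the change of Zbtb33 was -0.13 (adjusted p = 0.542).

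From crypts to day 3, 2 of the 9 passed, against 29.9% of all genes. Hdac2 changed by -0.65 (adjusted p = 0.00664). Tcf4 changed by -0.63, from 0.27 in crypts to -0.35 on day 3, with an adjusted p of 0.0499 that rose to 0.0589 when mouse numbers formed blocks. Leaving out Mtgr1-/- mouse 2 took that change to -0.34 and its adjusted p to 0.254, and leaving out Mtgr1-/- mouse 3 took the count of members past the threshold to 4. Between day 1 and day 3 the difference changed for none of the 9, in a test that called 0.0310% of all genes (4 of 12903). There limma gave an unadjusted p under 0.05 for 1 gene, Ncor1, whose difference changed by -0.39 (adjusted p = 0.490).

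Levels were set across days as a description only, since the tables were normalized separately. On a scale with 1 median-ratio factor per library over all 18 libraries, WT Hdac2 stood at 1.57 times its crypt level on day 1 and 1.63 times on day 3. In CPM the same multiples were 1.88 and 2.03. In Mtgr1-/- they were 0.91 and 1.05, and 0.85 and 1.10 in CPM, with ranges that overlapped those of Mtgr1-/- crypts. WT Hdac2 libraries in culture lay above all WT crypt libraries on both scales.

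WT Tcf3 was 1.21 times the crypt level on day 1 and 1.50 times on day 3 on the joint scale, and 1.45 and 1.87 times in CPM. WT Tcf3 libraries overlapped crypts on day 1 on the joint scale. Mtgr1-/- Tcf3 was 0.74 and 1.10 times its crypt level on the joint scale, below crypts without overlap on day 1, while in CPM (0.70) it overlapped. WT Sin3a was 1.23 and 1.39 times the crypt level, against 0.96 and 1.15 in Mtgr1-/-, on the joint scale. Mtgr1-/- Sin3a libraries overlapped their crypt libraries on both days and both scales.

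Ncor1 differed in that the WT level on the joint scale was 0.79 of crypts on day 1 and 0.78 on day 3, and 0.95 and 0.97 in CPM, where the libraries overlapped. In Mtgr1-/- it was 1.11 and 0.83 times crypts on the joint scale. Tcf4 was below crypts in Mtgr1-/- on both days and both scales (0.56 and 0.59 on the joint scale, without overlap). Per kilobase of longest coding transcript, Hdac3 (1321 ± 37.4) and Hdac1 (1173 ± 10.6) were the most abundant of the 9 in WT day 1 enteroids, and did not overlap each other. Hdac2 (826 ± 22.4), Ncor1 (771 ± 55.5) and Tcf3 (716 ± 99.1) came next with neighbouring ranges that overlapped. The order of Hdac3 and Hdac1 depends on the length used. Per kilobase of all annotated exons merged, the WT day 1 mean was 662 for Hdac3 and 694 for Hdac1.

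Ratios of a pair of genes within 1 library do not depend on any library factor, and 5 such pairs were formed after the values were known. With 3 libraries against 3 the exact permutation test (two-sided) cannot go below 0.1, so they are given as values. Hdac2 to Hdac1 was 1.11, 1.11 and 1.15 in WT and 0.67, 0.93 and 0.68 in Mtgr1-/- on day 1. On day 3 it was 1.15, 1.12 and 1.21 in WT and 0.78, 0.80 and 0.81 in Mtgr1-/-. The genotypes were apart on both days and overlapped in crypts (WT 0.66 to 0.80, Mtgr1-/- 0.61 to 0.92). Hdac2 to Hdac3 did not overlap at any of the 3 times, with 0.77 ± 0.12 in WT and 0.61 ± 0.07 in Mtgr1-/- crypts and 1.00 ± 0.05 and 0.57 ± 0.06 on day 1. The crypt gap was small, with 0.691, 0.709 and 0.907 in WT and 0.609, 0.685 and 0.548 in Mtgr1-/-. The highest WT value came from crypt library 3, which stood apart in immune markers.

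The scaffolds were set against a paralogue or partner. Sin3a to Sin3b, the second Sin3 scaffold, was 1.67 ± 0.10 in WT and 0.72 ± 0.20 in Mtgr1-/- on day 1, and 1.90 ± 0.18 and 1.08 ± 0.09 on day 3 (SD, n = 3). In crypts the same ratio was 1.13 ± 0.14 and 1.04 ± 0.19 and overlapped. Ncor1 to Hdac3 was 2.60 ± 0.15 in WT and 4.20 ± 0.40 in Mtgr1-/- on day 1, and 2.36 ± 0.24 and 2.97 ± 0.35 on day 3, without overlap on either day. Tcf3 to Tcf12 overlapped between the genotypes at all 3 times (day 1, 0.82 ± 0.13 and 0.61 ± 0.11). On day 1, libraries 1, 2 and 3 gave 0.70, 0.96 and 0.80 in WT and 0.52, 0.72 and 0.58 in Mtgr1-/-, lower in Mtgr1-/- at each number. Without pairing by number an unequal change of these E proteins was not resolved, and with pairing it was not tested. The exact p was 0.1 wherever the genotypes did not overlap.

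**Figure D3:**
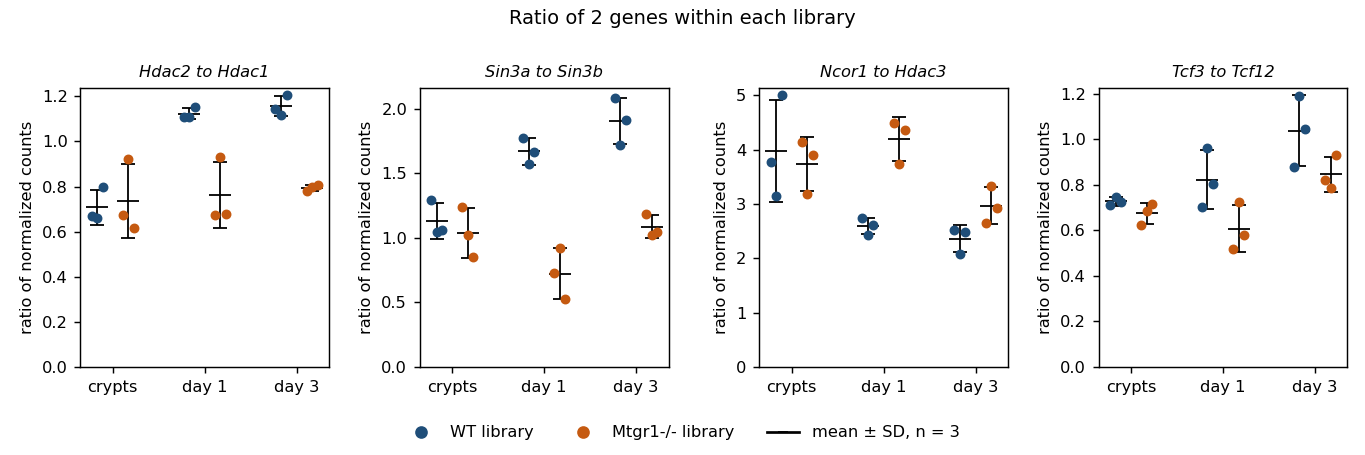
Ratio of normalized counts of 2 genes within each library (y axis, from 0) for Hdac2 to Hdac1, Sin3a to Sin3b, Ncor1 to Hdac3 and Tcf3 to Tcf12 in crypts, day 1 and day 3 enteroids; points are WT (blue) and Mtgr1-/- (orange) libraries, with mean ± SD (n = 3). The first 3 ratios separate the genotypes on both days of culture and overlap in crypts, and Tcf3 to Tcf12 overlaps at each time.

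The partners of these genes were taken as 7 lists, of which 53 genes were tested at each time. In crypts 7 were lower and 1 higher, on day 1 19 were lower and 12 higher, and on day 3 26 were lower and 10 higher. Of all genes tested, 3.15% were lower and 1.58% higher in crypts, 28.9% and 30.0% on day 1, and 29.1% and 29.9% on day 3. The counts for the lists are given as a description. The crypt count rested on single libraries, being 3 without WT library 1 and 4 to 5 without WT library 2 or Mtgr1-/- library 1 or 3. The median log2 fold change over the 53 was -0.08, -0.24 and -0.29, beside 0.01, -0.01 and 0.00 over all genes.

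Among E-protein inhibitors and bHLH partners, 4 of 9 were lower in Mtgr1-/- crypts, and on each day of culture 6 were lower and 3 higher. The lower genes encode the tissue-specific partners of E proteins and Id4. Atoh1, which commits crypt cells to secretory fates, read 291, 243 and 337 in WT crypts and 3.77, 17.1 and 16.3 in Mtgr1-/- crypts (log2 fold change -4.66), and its log2 fold change was -4.83 on day 1 and -4.43 on day 3. Neurog3, of the enteroendocrine lineage, changed by -5.50, -6.83 and -5.30. Neurod1 changed by -5.96 in crypts, and its log2 difference was -5.59 on day 1 and -5.43 on day 3. Bhlha15 (MIST1), of granule-bearing secretory cells, changed by -2.43 on day 1 and -3.31 on day 3. Its crypt difference of -1.73 was not past the threshold by limma. The secretory markers, a list that holds Atoh1 and Neurod1, were lower for 6 of 8 tested in crypts and 8 of 8 on each day of culture. Beside these counts, 3.15% of all genes were lower and 1.58% higher in crypts. The shares were 28.9% and 30.0% on day 1, and 29.1% and 29.9% on day 3.

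The 3 higher genes on each day were the inhibitors Id1, Id2 and Id3. Id2 read 342, 259 and 269.9 in WT and 971, 723 and 565 in Mtgr1-/- on day 1 (log2 fold change 1.35, limma adjusted p = 0.00126). Its log2 fold change on day 3 was 1.07. Id3 was higher by 1.59 on day 1 (148, 167 and 205 in WT, 559, 377 and 658 in Mtgr1-/-). It was higher by 0.71 on day 3, where 1 Mtgr1-/- library lay within the WT range and the call held in 12 of 18 alternative settings. Id1 was higher by 0.55 on day 1 and 0.78 on day 3. On the per-million scale its day 1 difference of 0.23 was no longer past the threshold. In crypts the log2 differences of Id1, Id2 and Id3 were 0.11, -0.33 and 0.13, none past the threshold.

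In the Sin3 complex 0 of 18 passed in crypts, 4 were lower and 3 higher on day 1, and 9 were lower and 3 higher on day 3, against 28.9% lower and 30.0% higher of all genes on day 1 and 29.1% and 29.9% on day 3. The histone-binding chaperones Rbbp4 and Rbbp7 and the subunit Sinhcaf led the lower genes. Rbbp4 read 4911, 4440 and 4501 in WT and 2791, 2869 and 2436 in Mtgr1-/- on day 1, with a log2 fold change of -0.78 (adjusted p = 0.000482), and changed by -0.70 on day 3. Rbbp7 changed by -0.85 and -0.56, and Sinhcaf by -1.24 and -0.96. The higher genes on both days were Sin3b (0.64 and 0.28), Sap30l (0.80 and 0.59) and Brms1 (0.36 and 0.31). On the per-million scale Brms1 on both days and Sin3b on day 3 were not past the threshold, and the Brms1 calls held in 12 and 9 of 18 settings.

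In the NCoR complex no gene passed in crypts by limma, where 2 had an unadjusted p under 0.05. Coro2a, a WD-repeat subunit, read 12083, 10617 and 13502 in WT and 27574, 24429 and 29312 in Mtgr1-/- on day 1 (log2 fold change 1.17, limma adjusted p = 0.000328). Its log2 fold change on day 3 was 1.35. Gps2 changed by -0.27 on day 3, a call that held in 8 of 18 settings.

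Of the other histone deacetylases, 1 of 7 was lower in crypts, 2 were lower and 1 higher on day 1, and 3 were lower on day 3. Among all genes tested, 3.15% were lower and 1.58% higher in crypts. On day 1 those shares were 28.9% and 30.0%, and on day 3 29.1% and 29.9%. Hdac5, a class II enzyme, was lower in crypts (706, 596 and 829 in WT, 423, 363 and 354 in Mtgr1-/-, log2 fold change -0.89) and higher on day 1 (487, 564 and 422 in WT, 779, 756 and 875 in Mtgr1-/-, log2 fold change 0.71). Hdac6 changed by -0.62 and -0.60 on days 1 and 3, Hdac7 by -0.73 and -0.59, and Hdac8 by -0.40 on day 3. The log2 difference of Hdac7 in crypts was -1.16, not past the threshold by limma. A change of it from crypts to day 1 or day 3 was not shown (joint limma fit, adjusted p = 0.462 and 0.339). Of 18 alternative settings, the crypt call of Hdac5 held in 14, and the day 3 calls of Hdac7 and Hdac8 in 9 and 11.

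In the MTG family Cbfa2t3 (MTG16) was lower at all 3 times, by log2 fold changes of -2.40, -0.95 and -1.03, although its crypt call held in 11 of 18 settings. Runx1t1 (MTG8), below a mean of 50 and named after its values were seen, read 21.9, 18.7 and 27.7 in WT and 0 in each Mtgr1-/- library on day 1. Among the other DNA-binding partners, the zinc finger repressor Gfi1 changed by -2.61 in crypts (a call that held in 14 of 18 settings). The log2 difference of Gfi1 was -4.37 on day 1 and -3.71 on day 3. The higher crypt gene was its relative Gfi1b, with 8.62, 5.94 and 10.4 normalized counts in WT and 85.7, 26.6 and 72.2 in Mtgr1-/-, also named after its values were seen. The Gfi1b call was lost with edgeR and without any 1 of WT libraries 1, 2 and 3 or Mtgr1-/- libraries 1 and 3. Zbtb38, a methyl-CpG-binding relative of Kaiso, changed by -0.79 on day 1 and -0.61 on day 3, and Rbpj, the DNA-binding effector of Notch, by -0.44 and -0.39. In crypts the difference of Zbtb38 was -0.48, not past the threshold by limma. Bcl6 (0.67 and 0.42) and Ctnnd1 (0.54 and 0.58), which encodes the Kaiso-binding p120 catenin, were higher on both days, but on the per-million scale Bcl6 on day 3 and Ctnnd1 on day 1 were not past the threshold.

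Among the TCF/LEF factors, Tcf7 changed by -1.43 on day 1 and -1.38 on day 3. Its log2 difference in crypts was -1.55, not past the threshold by limma but past it with DESeq2. A change of that difference from crypts to day 1 or day 3 was not shown (joint limma fit, adjusted p = 0.885 and 0.839). Tcf7l2, the Wnt effector, read 583, 714 and 671 in WT and 883, 926 and 1123 in Mtgr1-/- on day 1, so that the log2 fold change was 0.57 (adjusted p = 0.00615), but 0.25 and not past the threshold in CPM. Its differences in crypts (0.14) and on day 3 (0.20) were not past the threshold. Ctnnb1, the coactivator of these factors, was higher by 0.37 on day 1 and 0.57 on day 3, but its day 1 value turned to -0.13 after quantile normalization.

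**Figure D4:**
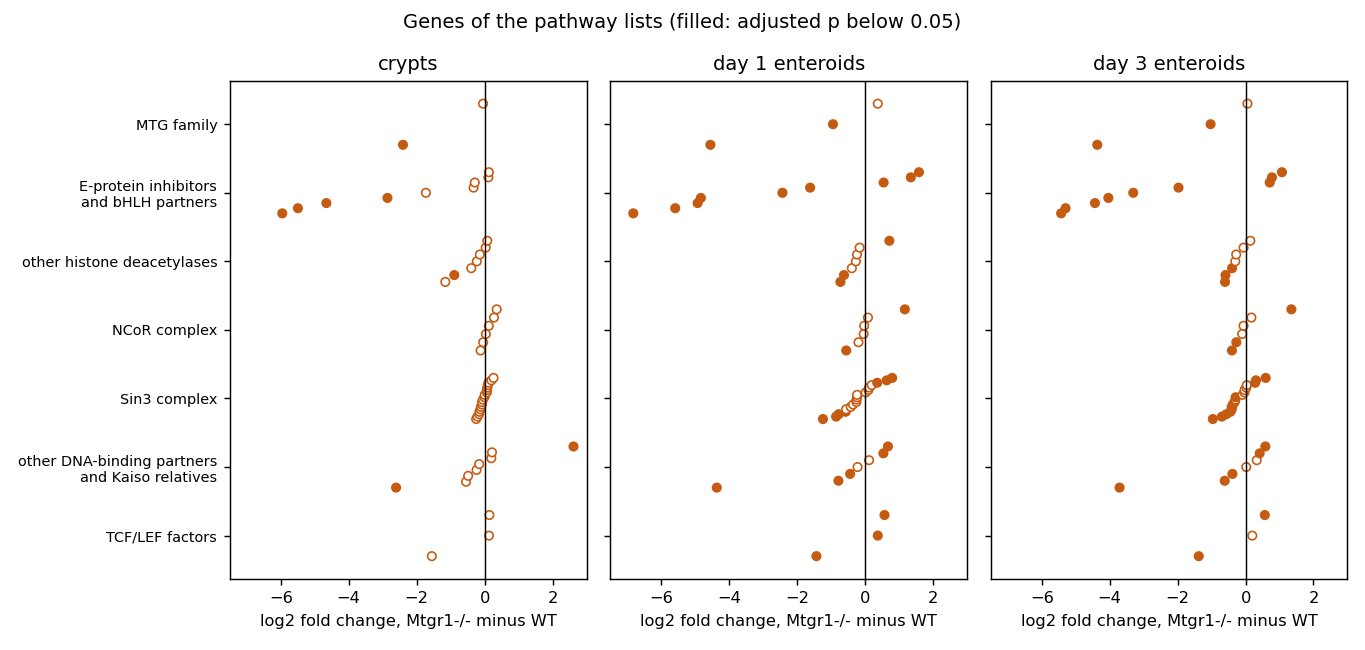
Log2 fold change of Mtgr1-/- minus WT (x axis) for each tested gene of the 7 partner lists (rows; vertical offset within a row only separates genes) in crypts, day 1 and day 3 enteroids; filled points have an adjusted p below 0.05 (limma, 3 against 3 libraries). The bHLH partners reach the farthest left at each time, with Neurog3 at -6.83 on day 1, and the Sin3 complex spreads to both sides of 0 in culture.

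Which genes followed each member most closely was described by Pearson's r over the 18 libraries after each table's mean was subtracted, among 10589 genes with a mean of at least 50 in every table. The libraries of both genotypes and of the same mice enter that measure, so r carries no test. Hdac2 was closest to Tmpo (0.993), Mcm2 (0.992) and Rpa1 (0.992), genes of the nuclear lamina and of DNA replication. Tcf12 was closest to Mre11a (0.972), Rfc1 (0.967) and Tmem209 (0.963), and Tcf3 to Mta1 and H2afx (both 0.975). Sin3a was closest to Rnf168, Glipr2 and Pgm2l1 (0.970, 0.969 and 0.967), and Zbtb33 to Zbtb1, B230219D22Rik and Zfp644 (0.941, 0.932 and 0.922). Ncor1 was closest to Ikbip, March6 and Akap9 (0.950, 0.943 and 0.942), and Hdac1 to Rps2, Hmga1 and Traf7 (0.946, 0.945 and 0.926). Tcf4 (Nfrkb, Smyd3 and Wdr59, 0.914, 0.849 and 0.807) and Hdac3 (Foxred1, Gpx2 and Tbcd, 0.902, 0.889 and 0.885) had looser neighbours.

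Markers of dividing cells and of enterocytes moved with these differences. The 10 proliferation markers were lower in Mtgr1-/- for 9 of 10 on day 1 and 10 of 10 on day 3, and for 0 of 10 in crypts. Their summed level ran from 57632 to 58723 normalized counts in WT and from 23688 to 34043 in Mtgr1-/- on day 1, and from 61367 to 64954 and 25925 to 39378 on day 3. In crypts the sums were 28142 to 34230 in WT and 23566 to 32054 in Mtgr1-/- and overlapped. The 9 enterocyte markers were higher for 9 of 9 on each day of culture. Their sums were 155754 to 200585 in WT and 435200 to 748212 in Mtgr1-/- on day 1. The marker counts stand beside 28.9% of all genes lower and 30.0% higher on day 1, and 29.1% and 29.9% on day 3. Immune markers summed to 93.7 to 411.5 in WT and 56.0 to 767 in Mtgr1-/- on day 1, and Mtgr1-/- library 3 was the highest on both days. Mesenchymal markers (4 of 9 listed in the enteroid tables) summed to 173 to 265 normalized counts in WT and 40.8 to 82.7 in Mtgr1-/- on day 1, and to 167 to 198 and 35.8 to 150.5 on day 3, without overlap. Mesenchymal, endothelial, muscle and neural marker sums were at most 11.2 CPM in each enteroid library. The part of these cell populations in the differences of the 9 genes was not tested.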

How the data were processed

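mRNA was sequenced (stranded, single 50-base reads) from crypts and enteroids of 3 WT and 3 Mtgr1-/- mice. The authors used fastp 0.20.0 for trimming and Salmon 1.3.0 for transcript estimates on the GENCODE mouse transcriptome, and summarised them to genes. The deposited values are a signal, normalized counts from DESeq2 1.26.0, made separately for each time point. The deposited log2 fold changes, p-values and test score of the authors' own comparison were not used. Dividing a library by the value of 1 read gave whole numbers for 100.0% of values (tolerance 0.01) in all 18 libraries. In 2 of them (WT crypts 2 and Mtgr1-/- day 3 library 2) 1 read was worth 0.990 and 0.994, so near 1 that the recovery could not be told from the values as deposited, and count tests did not use them.

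Genes with a mean of at least 10 entered limma 3.58.1 in R 4.3.3 (log2 of value + 1, mean-variance trend, two-sided, Benjamini-Hochberg over all genes, threshold 0.05), fitted per time point. Changes of the genotype difference came from 1 joint fit of the 18 libraries, where libraries of a mouse were allowed to correlate (estimate 0.01). P-values of the fits per time point measure the spread between mice. Those of the joint fit measure the spread between libraries, which at that estimate entered as nearly independent although each mouse gave 3. Members and partner lists were chosen with earlier results of these data known. From each partner list the text names, at each time, up to 3 genes a direction with the largest change among those that passed the threshold at a mean normalized count of 50 or more, and 3 closest genes for each member. Alternatives were other pseudocounts, filters and scalings, array weights, the replicate number as a block, edgeR 4.0.16, DESeq2 1.42.0, and leaving out each mouse. In the joint fit that block took the place of the mouse correlation. Same-numbered libraries of the genotypes, which are different mice, had deviations that correlated at 0.08, 0.27 and 0.35 in crypts, 0.12, 0.23 and 0.22 on day 1, and -0.01, 0.00 and -0.02 on day 3. All 3 pairs passed 0.1 only on day 1. The fits were tested on simulated data. Some genes that these rules pick are not reported here.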

Additional observations from a re-analysis of the deposited data

Results flagged for a closer look

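A genotype difference that itself changed between crypts and culture was found for 5 of the 9 genes, in 6 tests past an adjusted p of 0.05 (limma, all 18 libraries). The counts of 4 of 9 on day 1 and 2 of 9 on day 3 stand beside 38.6% and 29.9% of all genes. Between crypts and day 1 the log2 difference (Mtgr1-/- minus WT) changed by -0.79 for Hdac2, by -0.71 for Tcf3, by -0.38 for Tcf12 and by 0.47 for Ncor1. Between crypts and day 3 it changed by -0.65 for Hdac2 and by -0.63 for Tcf4, a call that held in 5 of 16 settings and not with the replicate number as a block. Proliferation markers changed in the same libraries, and their part in these values was not tested. With 3 libraries a group, no search for single libraries far from their group was made.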

How the results depend on the processing

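Of 918 values of the 9 genes under alternative settings, 849 kept their direction and side of the threshold, 31 were no longer past it, 25 were newly past it and 13 reversed. Hdac2, Tcf3 and Sin3a were past the threshold on both days in 18 of 18 settings, and the crypt count was 0 in 18 of 18. Leaving out 1 mouse gave 3 to 7 partner genes in crypts, 3 to 5 of the 9 on day 3, 1 to 3 changed differences from crypts to day 1, 1 to 4 from crypts to day 3 and 0 to 1 from day 1 to day 3. The lowest day 3 count, 3, came without WT mouse 1 or WT mouse 3. On the per-million scale, chosen after seeing the data, 8 of the 9 passed on day 3, and 7 and 4 differences changed from crypts to days 1 and 3. For crypts to day 3 the count was 1 with pseudocount 0.1, no filter, median-ratio rescaling or no trend. It was also 1 with no mouse effect, the replicate-number block or only those time points. Array weights gave 1 from day 1 to day 3 (Ncor1).

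When the replicate number was added as a block, 0, 7 and 4 of the 9 and 8, 37 and 35 partner genes passed in crypts, on day 1 and on day 3, and 4, 1 and 0 differences changed. The block brought in Zbtb33 on day 1 and took it out on day 3 (adjusted p = 0.0599), where the numbers did not pair the libraries.

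Reversed values were as follows, and the cause was not tested. Array weights gave 0.0281 for Cbfa2t2 and -0.11 for Tcf7l2 in crypts, -0.11 for Cbfa2t2 on day 3, 0.0227 for the Hdac1 change from crypts to day 3 and -0.0277 for the Zbtb33 change from day 1 to day 3. Quantile normalization gave 0.0481 for Tcf4 and -0.13 for Ctnnb1 on day 1 and -0.0945 for Ncor1 on day 3. The edgeR and DESeq2 values of Cbfa2t2 on day 3 were -0.0248 and -0.0189. The per-million scale gave -0.15 for Cbfa2t2 and -0.0028 for Tcf7l2 on day 3, -0.15 for the Ncor1 change from crypts to day 3 and 0.0890 for the Hdac3 change from day 1 to day 3. Leaving out 1 mouse gave ranges of -0.21 to 0.0823 for Cbfa2t2, -0.12 to 0.0635 for Tcf12 and -0.0325 to 0.29 for Tcf7l2 in crypts, and -0.0245 to 0.15 for Cbfa2t2 on day 3. The changes from crypts to day 3 ran from -0.14 to 0.0254 for Hdac1 and -0.0690 to 0.17 for Ncor1, and those from day 1 to day 3 from -0.0908 to 0.0046 for Hdac3, -0.0537 to 0.20 for Sin3a and -0.12 to 0.11 for Zbtb33.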
